A study of Mus musculus with 6 samples.

Results

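Glycolysis turns glucose into pyruvate, and 36 genes of this route and of the points where pyruvate and lactate part were measured in Ddx20 knockout and control spermatogonia. They were picked by gene symbol, not by their values, out of 22579 genes in the deposited count table, and all 36 had a row there. They comprise 12 genes of glucose transport and of the priming steps, 13 genes of the cleavage and payoff steps, and 11 genes of lactate dehydrogenase, the pyruvate dehydrogenase gate and the monocarboxylate transporters. Testis isozymes are among them.

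The knockout group was 3 libraries of THY1-positive spermatogonia labelled Ddx20 knockout, also shortened to cKO, and the control group was 3 libraries of the same cell type from littermates labelled Control, all taken at Day 4. Sorting on THY1, a cell surface protein, enriches undifferentiated spermatogonia, and DDX20 is a DEAD-box RNA helicase of the SMN complex. The labels give neither the strain, nor where the deletion was made, nor a Cre line, nor whether animals were pooled. Each library was made from about 1000 cells by SMART-seq2, which primes on poly(A) tails and amplifies whole cDNA by PCR without molecular identifiers.

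In glycolysis, hexokinase traps glucose in the cell, phosphofructokinase commits it, aldolase cleaves the sugar into triose phosphates, and the enzymes from glyceraldehyde phosphate dehydrogenase to pyruvate kinase recover ATP. Lactate dehydrogenase interconverts pyruvate and lactate. Pyruvate dehydrogenase kinases phosphorylate and so inactivate the pyruvate dehydrogenase complex, which oxidizes pyruvate inside mitochondria. In the testis, Sertoli cells are known to supply lactate to germ cells, and later germ cells switch on their own isozymes, among them Ldhc, Pgk2, Gapdhs and Pdha2.

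Of the 36 genes, 32 had enough reads to be tested, and 5 differed between the groups by edgeR's quasi-likelihood test at a Benjamini-Hochberg adjusted p under 0.05. Ldha, Ldhb and Tpi1 were higher in knockout libraries, Hk2 and Pdk1 were lower, and the other 27 did not pass. The 3 higher genes were 9.38% of the 32 and the 2 lower genes 6.25%, against 2.03% and 2.80% of all 14766 genes tested. Both directions together gave 15.6% of the 32, against 4.83% of all genes. At an unadjusted p under 0.05, 8 were higher and 4 lower, or 37.5% against 24.1% of all genes. The 3 knockout values lay wholly above the 3 control values in 9 genes and wholly below them in 5, or 43.8% against 32.6% of all genes. The median log2 fold change of the 32 was 0.20, against 0.01 over all genes, with 22 positive and 10 negative.

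These calls rest on few independent libraries. Knockout 1 and knockout 2 stood out as the most alike pair, with a mean chi-square per gene of 1.78 between them. The expectation from sampling is 1, and the 14 remaining pairs lay at 12.0 to 104. With these libraries counted as 1, all 5 calls were lost by edgeR (adjusted p 0.0828 for Ldha to 0.220 for Pdk1), while their directions stayed the same. In that setting DESeq2 (adjusted p 1.72e-04 to 0.0296) and limma-voom (0.00466 to 0.0443) still called Hk2, Tpi1, Ldha and Ldhb, and Pdk1 was missed by DESeq2 (0.0828) and by limma-voom (0.0947).

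Depth was 11656130 to 12497967 counted reads in knockout libraries and 8428871 to 11893287 in control libraries. Ddx20 itself stood at 11.9, 15.2 and 10.7 CPM in knockout libraries, against 63.8, 36.4 and 40.7 CPM in control libraries (log2 fold change −1.89 ± 0.26 SE, edgeR adjusted p 0.0118). CPM (counts scaled to the TMM-adjusted library size) is used throughout. Mitochondrially encoded transcripts took 19.8% to 20.1% of reads in knockout libraries and 14.0% to 16.9% in control libraries. All 8 germ cell markers were detected in each library, led by Dazl at 3003 to 3323 CPM in knockout libraries and 2501 to 3228 CPM in control libraries, and they moved in both directions between the groups. Transcript of the sorting marker Thy1 was low in both groups, at 5.76 to 7.34 CPM in knockout libraries and 5.60 to 13.7 CPM in control libraries. Of 14 spermatocyte and spermatid markers in the table, 7, among them Acr, Prm1, Prm2 and Tnp2, were below 1 CPM in every library. Tnp1, Spaca1, Piwil1, Odf1 and Insl6 were above 1 CPM in every library. Their values ran from 1.72 CPM (Piwil1, knockout 2) to 10.4 CPM (Spaca1, control 3).

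**Figure D1:**
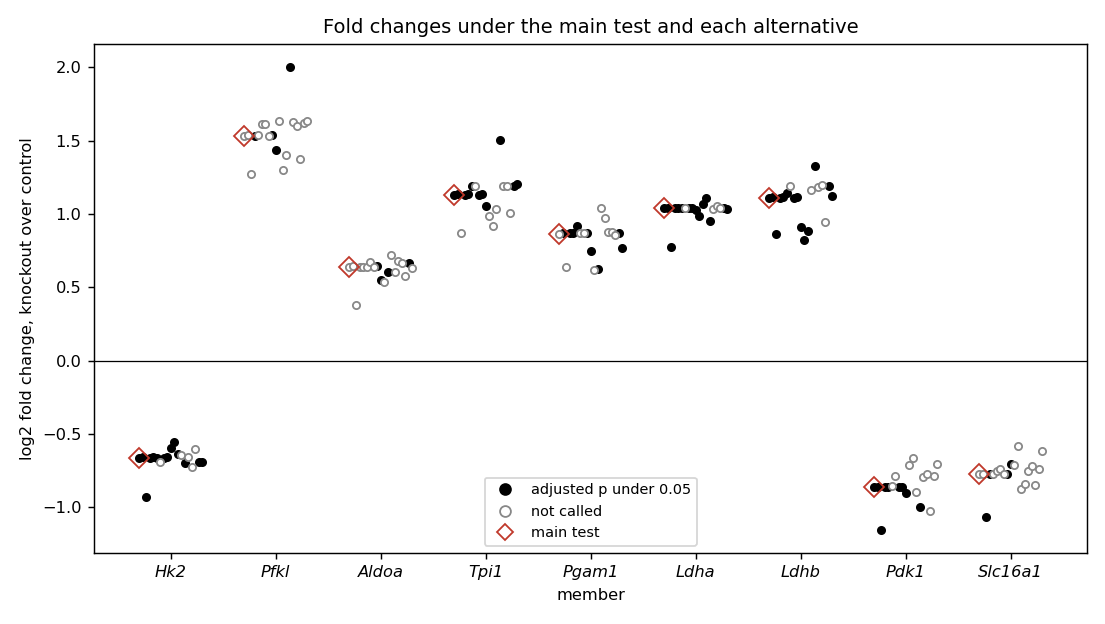
Log2 fold changes, knockout over control, of 9 genes under the main test (diamond) and 18 alternative analyses (points, filled where the adjusted p was under 0.05). The 5 genes called by the main test and the other 4 shown stayed on the same side of zero throughout, while many alternatives left a gene uncalled.

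**Figure D2:**
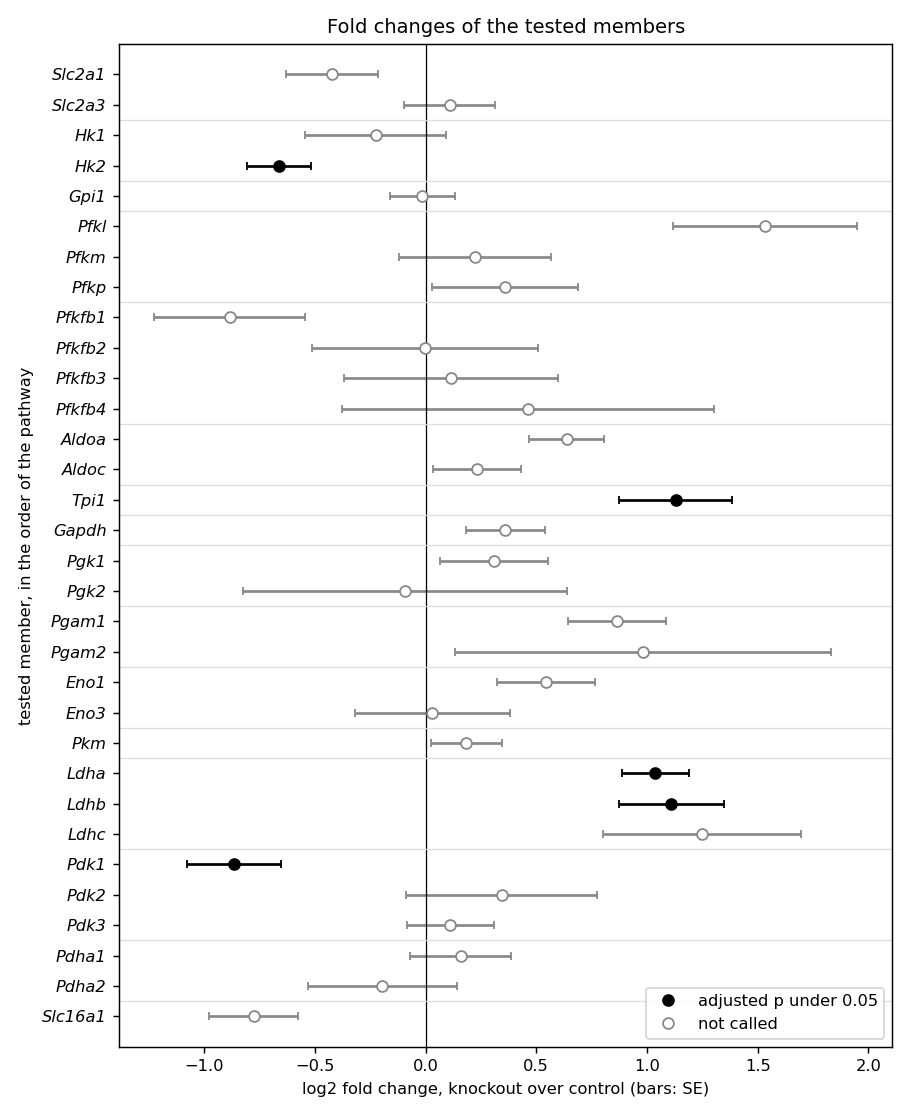
Log2 fold changes of the 32 tested genes, knockout over control, in pathway order from glucose transport at the top to monocarboxylate transport at the bottom. Points are edgeR estimates and bars are standard errors; filled points mark the 5 genes with an adjusted p under 0.05, with Hk2 and Pdk1 left of zero and Tpi1, Ldha and Ldhb right of it.

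Many glycolysis genes are known targets of the hypoxia-inducible factors, which bind the short core ACGTG or its variant with G in the first place, GCGTG, and of MYC, which binds the E-box CACGTG. The promoters of 3 genes are shown because Ldha is known as a target of both factors and was higher, while Hk2 and Pdk1, also known hypoxia-inducible factor targets, were lower. Each is the 250 bases before the most upstream RefSeq start on GRCm38.p6, given 5′ to 3′ on the gene's strand, with capitals at every match to the core on this strand or the other. The Ldha window is chr7:46845554-46845803 on the plus strand, the Hk2 window chr6:82774455-82774704 on the minus strand, and the Pdk1 window chr2:71872974-71873223 on the plus strand. In GENCODE M21 the Ldha gene begins further upstream, at chr7:46841475, so its window lies inside the gene annotated there. The Hk2 and Pdk1 windows adjoin the starts of their genes.
Ldha: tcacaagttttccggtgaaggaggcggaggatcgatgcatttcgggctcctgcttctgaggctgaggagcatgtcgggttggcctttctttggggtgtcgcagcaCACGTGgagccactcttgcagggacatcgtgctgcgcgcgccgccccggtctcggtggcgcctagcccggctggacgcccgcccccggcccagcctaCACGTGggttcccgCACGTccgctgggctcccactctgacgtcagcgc
Hk2: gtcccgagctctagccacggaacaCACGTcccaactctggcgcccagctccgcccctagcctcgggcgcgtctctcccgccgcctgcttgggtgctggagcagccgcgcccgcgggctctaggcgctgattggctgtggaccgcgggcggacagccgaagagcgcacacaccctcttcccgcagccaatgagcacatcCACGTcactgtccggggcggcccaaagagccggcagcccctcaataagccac
Pdk1: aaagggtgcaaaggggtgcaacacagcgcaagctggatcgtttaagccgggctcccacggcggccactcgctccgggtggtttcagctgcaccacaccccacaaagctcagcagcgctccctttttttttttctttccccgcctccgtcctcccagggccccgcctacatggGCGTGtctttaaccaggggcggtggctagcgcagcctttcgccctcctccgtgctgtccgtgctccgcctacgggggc
The Ldha window held 5 core matches, of which 4 came from 2 E-boxes, since a CACGTG matches the core on both strands. The Hk2 window held 2 core matches and the Pdk1 window 1, with no E-box in either. Among the other called genes, the Ldhb window held 1 match and the Tpi1 window 0. Of the 36 genes 35 had a promoter entry (Slc2a3 had none), and 24 of these 35 windows, or 68.6%, held at least 1 core match. Over all 27025 windows of the same length that were used, 10442 or 38.6% held a match. An E-box was in 4 of the 35 windows, or 11.4%, against 6.04% of all windows. The windows compared were not matched for base composition, and every form of the core contains CG, so the shares do not show an excess of binding sites. A match is a run of letters and not evidence of binding, and both directions of change occurred among genes with a match.

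At glucose transport and priming, hexokinase was lower and no other step passed the test. Of 12 genes 0 were called higher and 1 lower by edgeR, or 8.33% against 4.83% of all genes. At an unadjusted p under 0.05, 1 was higher and 2 were lower, or 25.0% against 24.1% of all genes. The median log2 fold change was 0.05. By the other tools, DESeq2 called Pfkl higher and limma-voom called Pfkl and Pfkp higher. Slc2a1 encodes GLUT1, the widespread glucose transporter. It stood at 20.3, 17.6 and 22.6 CPM in knockout libraries, against 27.0, 23.7 and 30.3 CPM in control libraries. Every knockout value was below every control value, but the difference did not pass (log2 fold change −0.42 ± 0.21 SE, edgeR adjusted p 0.242). Slc2a3, which encodes the high-affinity transporter GLUT3, overlapped between the groups (log2 fold change 0.11, edgeR adjusted p 0.800). Per kilobase of transcript the mean level of Slc2a1 was 6.18 CPM per kb in knockout libraries and 8.29 CPM per kb in control libraries. That of Slc2a3 was 6.03 CPM per kb in knockout libraries and 5.59 CPM per kb in control libraries.

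Hk2 encodes hexokinase 2, the inducible hexokinase of growing cells that docks on mitochondria, and lies at chr6:82725025-82774454 of mm10 on the minus strand. It stood at 83.9, 91.5 and 76.4 CPM in knockout libraries, against 138, 134 and 127 CPM in control libraries. The groups were well apart, with the highest knockout library still far under the lowest control. The means were 84.0 ± 7.55 CPM in knockout libraries and 133 ± 5.86 CPM in control libraries (SD, n = 3 each), 1.58-fold lower in the knockout (log2 fold change −0.66 ± 0.14 SE, edgeR adjusted p 0.0315). The edgeR adjusted p was 0.194, 0.160 and 0.0998 without knockout 1, 2 and 3. Leaving out control 2 gave 0.0724. Hk2 made up nearly all hexokinase transcript in both groups, 87.7% to 91.1% of the step's CPM per kb in knockout libraries and 91.6% to 93.3% in control libraries. Hk1, the constitutive isozyme, overlapped between the groups (log2 fold change −0.23, edgeR adjusted p 0.719), and the summed hexokinase level was 83.9 to 98.3 CPM in knockout libraries and 134.5 to 147 CPM in control libraries.

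The step after hexokinase showed no such difference. Gpi1, glucose phosphate isomerase, stood at 262, 270 and 240 CPM in knockout libraries, against 252, 270 and 258 CPM in control libraries, and the libraries of both groups were intermixed (log2 fold change −0.02 ± 0.15 SE, edgeR adjusted p 0.966).

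Phosphofructokinase has liver, muscle and platelet forms. Pfkl, the liver form, stood at 8.18, 8.62 and 11.3 CPM in knockout libraries, against 2.10, 2.56 and 4.98 CPM in control libraries. All knockout values were above all control values, at a low level, and the test was narrowly missed (log2 fold change 1.53 ± 0.42 SE, edgeR adjusted p 0.0610). Pfkp, the platelet form and the most abundant per kilobase, stood at 31.8, 27.9 and 23.7 CPM in knockout libraries, against 27.4, 10.2 and 27.2 CPM in control libraries. Control 2 alone was low, and the other 5 libraries were intermixed (log2 fold change 0.36 ± 0.33 SE, edgeR adjusted p 0.551). Pfkm, the muscle form, had a log2 fold change of 0.22 (edgeR adjusted p 0.744). Pfkl took 15.3% to 27.2% of phosphofructokinase CPM per kb in knockout libraries and 5.93% to 11.3% in control libraries, the sole form of the step whose share did not overlap between the groups.

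The PFKFB enzymes make and remove the sugar bisphosphate that activates phosphofructokinase. Pfkfb1, the most abundant of the 4 per kilobase here, stood at 5.39, 6.99 and 4.86 CPM in knockout libraries, against 7.64, 10.5 and 13.6 CPM in control libraries. Its groups did not overlap, and the difference did not pass (log2 fold change −0.89 ± 0.34 SE, edgeR adjusted p 0.146). Pfkfb2, Pfkfb3 and Pfkfb4 each overlapped between the groups, with means under 1 CPM per kb in both groups.

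**Figure D3:**
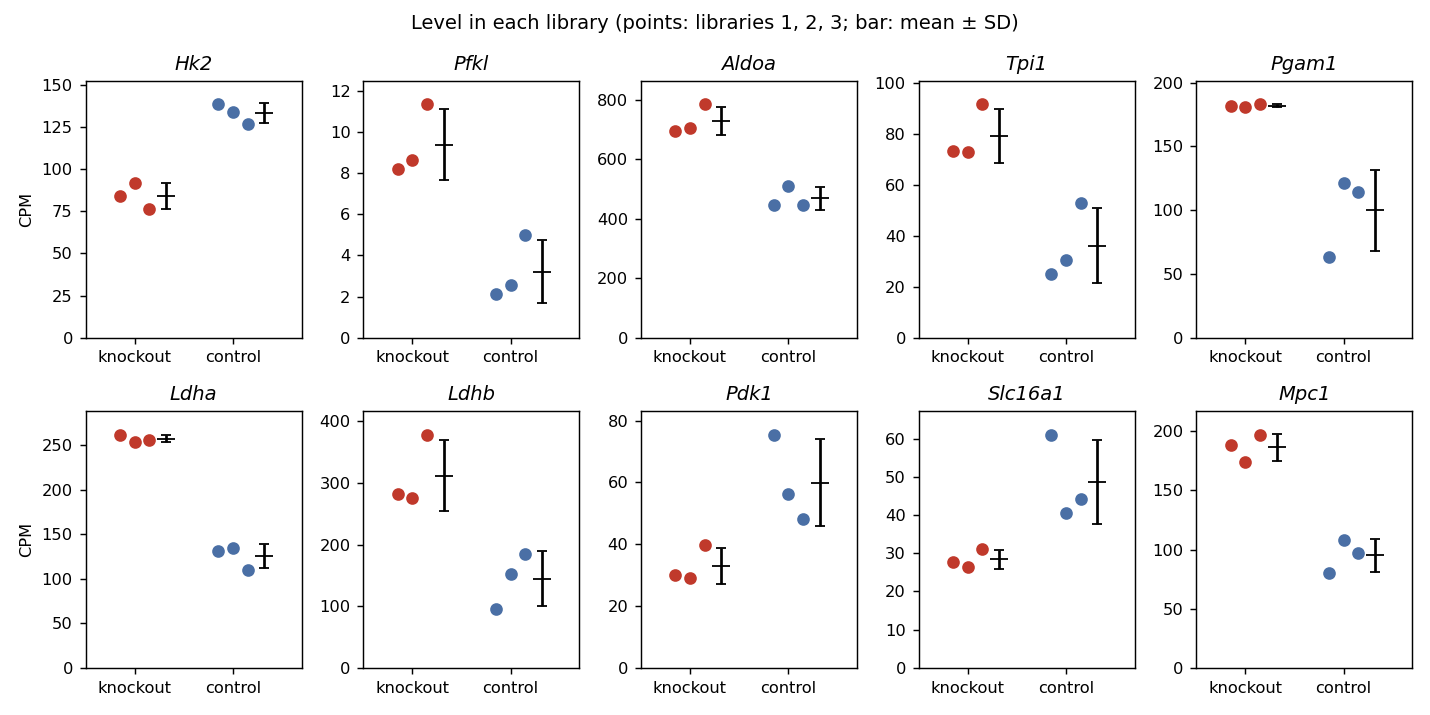
Level in each library, in TMM-scaled CPM, of 9 glycolysis and lactate genes and of the pyruvate carrier gene Mpc1, with knockout libraries on the left (red) and control libraries on the right (blue). Points are libraries 1, 2 and 3 and bars are mean ± SD; in each panel the 3 knockout points lie wholly above or wholly below the 3 control points.

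At cleavage and payoff, 10 of 11 tested genes had a positive log2 fold change, but only Tpi1 passed the test. Their median was 0.36, against 0.01 over all genes, of which 7426 of 14766 had a positive log2 fold change. At an unadjusted p under 0.05, 4 were higher and 0 lower, or 36.4%, against 11.3% higher and 12.8% lower of all genes. The 1 call was 9.09% of the 11, against 4.83% of all genes. Aldoa, the main aldolase, stood at 696, 706 and 785 CPM in knockout libraries, against 447, 512 and 447 CPM in control libraries. The groups were apart, with means of 729 ± 48.8 CPM in knockout libraries and 469 ± 37.5 CPM in control libraries (SD, n = 3 each), and the test was narrowly missed (log2 fold change 0.64 ± 0.17 SE, edgeR adjusted p 0.0563). Aldoc, the brain form, overlapped (log2 fold change 0.23, edgeR adjusted p 0.521) and made up 3.76% to 3.93% of aldolase CPM per kb in knockout libraries and 4.13% to 6.72% in control libraries.

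Tpi1, triose phosphate isomerase, which keeps both products of aldolase in the pathway, lies at chr6:124810586-124814296 of mm10 on the minus strand. It stood at 73.2, 72.9 and 91.6 CPM in knockout libraries, against 25.0, 30.7 and 52.7 CPM in control libraries. The knockout libraries were all higher, and control 3 was the nearest to them. The means were 79.2 ± 10.7 CPM in knockout libraries and 36.1 ± 14.7 CPM in control libraries (SD, n = 3 each), 2.19-fold higher in the knockout (log2 fold change 1.13 ± 0.26 SE, edgeR adjusted p 0.0364). The edgeR adjusted p was 0.121, 0.127 and 0.119 without knockout 1, 2 and 3, 0.0535 without control 1 and 0.105 without control 2. It was 0.0622 with scaling by library size alone and 0.0510 after correction for length and GC content.

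Gapdh, glyceraldehyde phosphate dehydrogenase, was the most abundant of the 36 genes per kilobase. It stood at 1118, 1085 and 1106 CPM in knockout libraries, against 906, 928 and 743 CPM in control libraries. All 3 knockout libraries were higher, and the difference did not pass (log2 fold change 0.36 ± 0.18 SE, edgeR adjusted p 0.251). Pgk1, the ubiquitous phosphoglycerate kinase, stood at 43.1, 39.0 and 32.2 CPM in knockout libraries, against 20.6, 32.3 and 39.2 CPM in control libraries. Here the groups overlapped, with control 1 the lowest library (log2 fold change 0.31 ± 0.24 SE, edgeR adjusted p 0.479).

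Pgam1, the main phosphoglycerate mutase, stood at 182, 181 and 183 CPM in knockout libraries, against 63.6, 121 and 114 CPM in control libraries. The knockout libraries were nearly equal, control 1 was the lowest, and the adjusted p lay just over the threshold (log2 fold change 0.87 ± 0.22 SE, edgeR adjusted p 0.0513). It was called in 9 of 18 alternative analyses, always higher in the knockout. Eno1, the main enolase, stood at 310, 318 and 370 CPM in knockout libraries, against 160, 223 and 302 CPM in control libraries. The groups did not overlap but nearly met at knockout 1 and control 3 (log2 fold change 0.54 ± 0.22 SE, edgeR adjusted p 0.169). The muscle forms Pgam2 and Eno3 overlapped between the groups (log2 fold changes 0.98 ± 0.85 and 0.03 ± 0.35 SE).

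Pkm, the pyruvate kinase gene, closes the payoff steps. It stood at 362, 353 and 375 CPM in knockout libraries, against 325, 354 and 280 CPM in control libraries. The groups met at knockout 2 and control 2 and did not differ by the test (log2 fold change 0.18 ± 0.16 SE, edgeR adjusted p 0.526). Gene counts do not separate its splice forms PKM1 and PKM2.

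Both somatic subunit genes of lactate dehydrogenase were higher in knockout libraries, and Ldha had the smallest p of the 32 tested genes. Ldha encodes the M subunit, which favours lactate production in muscle and in growing cells, and lies at chr7:46841475-46855627 of mm10 on the plus strand. It stood at 262, 254 and 256 CPM in knockout libraries, against 131, 135 and 110 CPM in control libraries. Each group was tight and the groups were far apart. The means were 257 ± 4.12 CPM in knockout libraries and 125 ± 13.6 CPM in control libraries (SD, n = 3 each), 2.05-fold higher in the knockout (log2 fold change 1.04 ± 0.15 SE, edgeR adjusted p 0.0119). The edgeR adjusted p was 0.0793, 0.0797 and 0.0620 without knockout 1, 2 and 3, and it stayed under 0.05 without any 1 control.

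Ldhb encodes the H subunit, known from heart, and lies at chr6:142490249-142507957 of mm10 on the minus strand. It stood at 282 (knockout 1), 275 (knockout 2) and 378 CPM (knockout 3), against 96.3, 152 and 185 CPM in control libraries. All knockout libraries were higher, with a wider spread than for Ldha in both groups. The means were 312 ± 57.8 CPM in knockout libraries and 144 ± 44.7 CPM in control libraries (SD, n = 3 each), 2.16-fold higher in the knockout (log2 fold change 1.11 ± 0.24 SE, edgeR adjusted p 0.0314). The edgeR adjusted p was 0.118, 0.118 and 0.110 without knockout 1, 2 and 3. Leaving out control 2 gave 0.0811.

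Ldhc, the germ cell subunit, stood at 16.8, 16.6 and 9.72 CPM in knockout libraries, against 2.29, 7.12 and 8.66 CPM in control libraries. The groups did not overlap but came close at knockout 3 and control 3, and the difference did not pass (log2 fold change 1.25 ± 0.45 SE, edgeR adjusted p 0.124). The 3 genes summed to 545 to 644 CPM in knockout libraries and 230 to 303 CPM in control libraries. Their proportions overlapped: Ldha was 32.8% to 39.3% of the step's CPM per kb in knockout libraries and 29.6% to 49.6% in control libraries, Ldhb 57.4% to 65.7% in knockout libraries and 49.3% to 67.4% in control libraries, and Ldhc 1.61% to 3.30% in knockout libraries and 1.12% to 3.01% in control libraries.

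**Figure D4:**
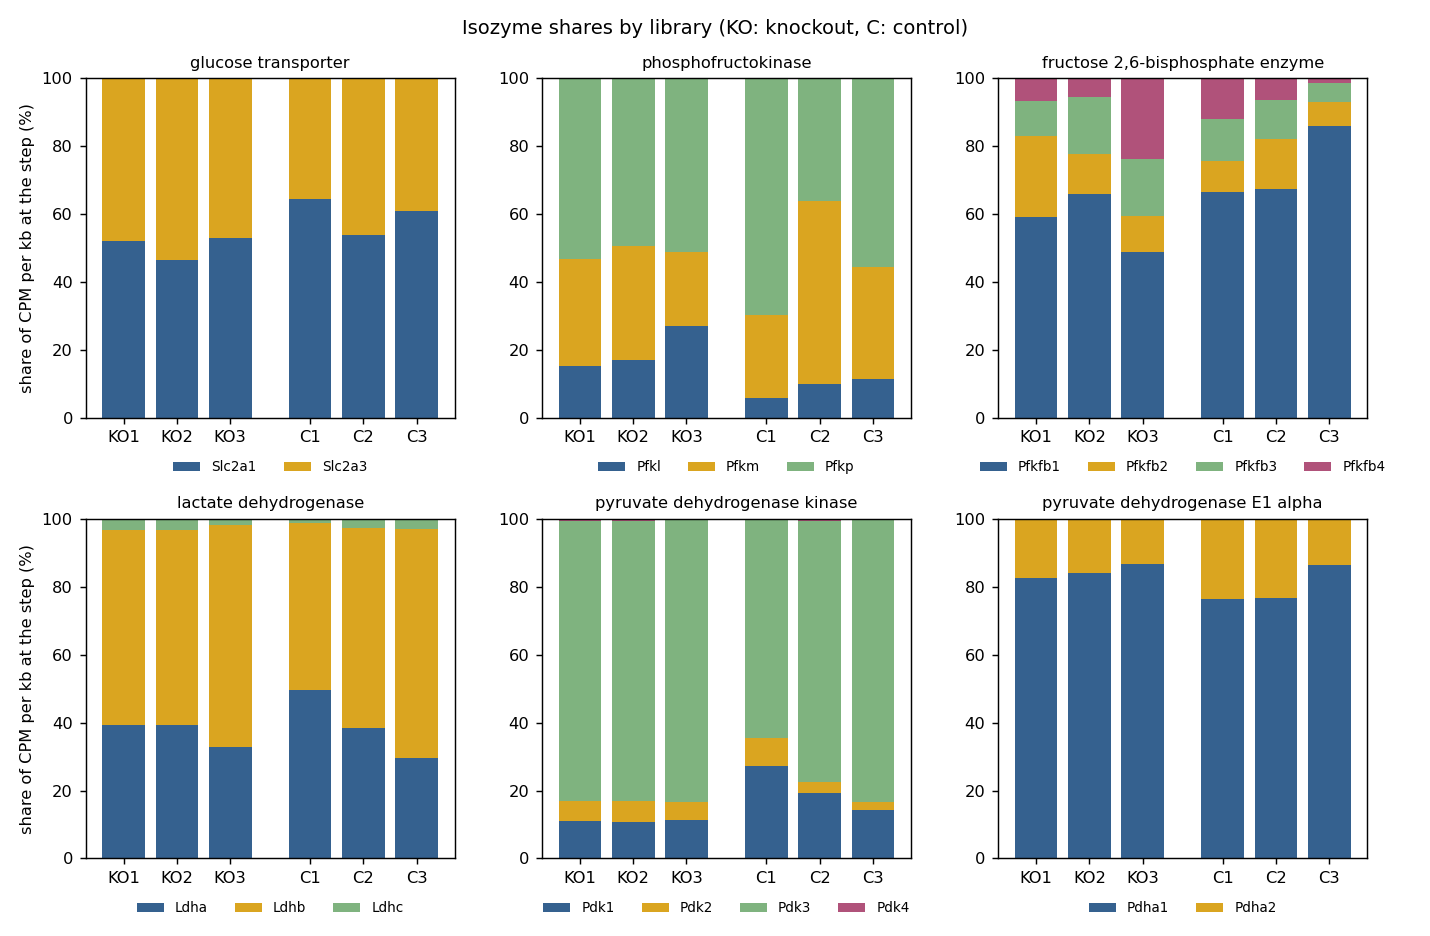
Share of each isozyme in the summed CPM per kb of its step, in percent, for each library, with knockout libraries (KO1 to KO3) left of control libraries (C1 to C3). Pfkl took a larger share and Pdk1 a smaller share in all 3 knockout libraries, with no overlap between the groups, while the Ldha, Ldhb and Ldhc shares overlapped.

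At the pyruvate dehydrogenase gate, Pdk1 was lower in knockout libraries and the other genes did not pass. Pdk1 encodes a kinase that inactivates the pyruvate dehydrogenase complex and lies at chr2:71873224-71903858 of mm10 on the plus strand. It stood at 30.0, 29.0 and 39.7 CPM in knockout libraries, against 75.5, 56.2 and 48.2 CPM in control libraries. All knockout libraries were lower, and control 1 was the highest of the 6. The means were 32.9 ± 5.89 CPM in knockout libraries and 60.0 ± 14.0 CPM in control libraries (SD, n = 3 each), 1.82-fold lower in the knockout (log2 fold change −0.86 ± 0.21 SE, edgeR adjusted p 0.0463). This was the weakest of the 5 calls by p. The edgeR adjusted p was 0.219, 0.215 and 0.0805 without knockout 1, 2 and 3. It was 0.0675 without control 1, 0.0911 without control 2 and 0.0646 after correction for length and GC content.

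Pdk3, the most abundant kinase of the gate here, stood at 91.5, 91.2 and 120 CPM in knockout libraries, against 72.5, 92.1 and 116 CPM in control libraries, with the libraries intermixed (log2 fold change 0.11 ± 0.20 SE, edgeR adjusted p 0.781). Pdk1 made up 10.7% to 11.2% of the kinases' CPM per kb in knockout libraries and 14.2% to 27.3% in control libraries, and Pdk3 82.5% to 83.0% in knockout libraries and 64.2% to 83.4% in control libraries. Summed kinase transcript overlapped between the groups, at 128.5 to 169 CPM in knockout libraries and 154 to 168 CPM in control libraries. Pdk2 had a log2 fold change of 0.34 (edgeR adjusted p 0.675). Pdha1, the somatic catalytic subunit gene of the complex, stood at 45.7, 48.8 and 39.7 CPM in knockout libraries, against 29.3, 36.7 and 54.0 CPM in control libraries. Control libraries held both the lowest and the highest value (log2 fold change 0.16 ± 0.23 SE, edgeR adjusted p 0.725).

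Slc16a1 encodes MCT1, a transporter that carries lactate and pyruvate across the plasma membrane. It stood at 27.7, 26.4 and 31.1 CPM in knockout libraries, against 61.0, 40.6 and 44.2 CPM in control libraries. All knockout libraries were lower, and the test was narrowly missed (log2 fold change −0.78 ± 0.20 SE, edgeR adjusted p 0.0538). It was called in 4 of 18 alternative analyses, lower in the knockout in all 18. Slc16a3, which encodes the lactate exporter MCT4, was too low to test, with 4, 6 and 0 reads in knockout libraries and 14, 3 and 3 reads in control libraries.

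The isozymes of later germ cells were low in both groups. Pgk2, an intronless copy of Pgk1 used in meiotic and later cells, had 23, 9 and 16 reads in knockout libraries and 13, 16 and 25 reads in control libraries, and the groups overlapped (log2 fold change −0.09 ± 0.73 SE, edgeR adjusted p 0.959). Gapdhs, the sperm form, was too low to test, with 5, 1 and 5 reads in knockout libraries and 0, 1 and 0 in control libraries. Pdha2, the intronless testis copy of Pdha1, overlapped (log2 fold change −0.19 ± 0.34 SE, edgeR adjusted p 0.777) and made up 13.1% to 17.5% of its step's CPM per kb in knockout libraries and 13.4% to 23.5% in control libraries. Eno2 and Pdk4, the remaining genes below the filter, had at most 11 and 14 reads in any library. Coding sequences of isozymes at the same step were 59.9% to 79.3% identical, with no shared run longer than 36 bases, so reads of 150 bases in coding sequence differ between them. Near-identical annotated genes exist for Gapdh (78, of which 2 are in the table with 0.063% as many reads), Ldha (4), Ldhb (1) and Tpi1 (1), the last 3 with 0 copies in the table. They also exist for Pgk1 (4), Pkm (2), Gpi1 (1) and Pgam1 (1), with 0 copies in the table. Eno1 has 3, of which 1 is in the table with 0.962% as many reads, and Pfkfb2 has 1, in the table with 7.9% as many reads. How the counting assigned reads shared with such copies is not given in the sources used here.

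Ratios of reads within a library do not depend on how libraries are scaled. The pairs below were chosen after the values were seen, and exact permutation of 3 against 3 libraries cannot give a two-sided p below 0.1, so they are given as a description. Ldha reads over Gapdh reads were 0.234, 0.234 and 0.231 in knockout libraries, against 0.145, 0.145 and 0.148 in control libraries. The spread within a group was a small fraction of the gap between the groups. Ldha over Pkm was 0.724, 0.719 and 0.683 in knockout libraries, against 0.404, 0.381 and 0.392 in control libraries. Ldha over Hk2, an end of the pathway over its start, was 3.12, 2.77 and 3.35 in knockout libraries, against 0.950, 1.01 and 0.866 in control libraries. Ldha thus had several times as many reads as Hk2 in knockout libraries and about as many in control libraries. Ldha over Pdk1 was 8.72, 8.75 and 6.44 in knockout libraries, against 1.74, 2.40 and 2.28 in control libraries. Hk2 over its neighbour Gpi1 was 0.321, 0.339 and 0.318 in knockout libraries, against 0.549, 0.497 and 0.490 in control libraries. Ldha over Ldhb overlapped, at 0.927, 0.924 and 0.676 in knockout libraries, against 1.36, 0.884 and 0.594 in control libraries.

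**Figure D5:**
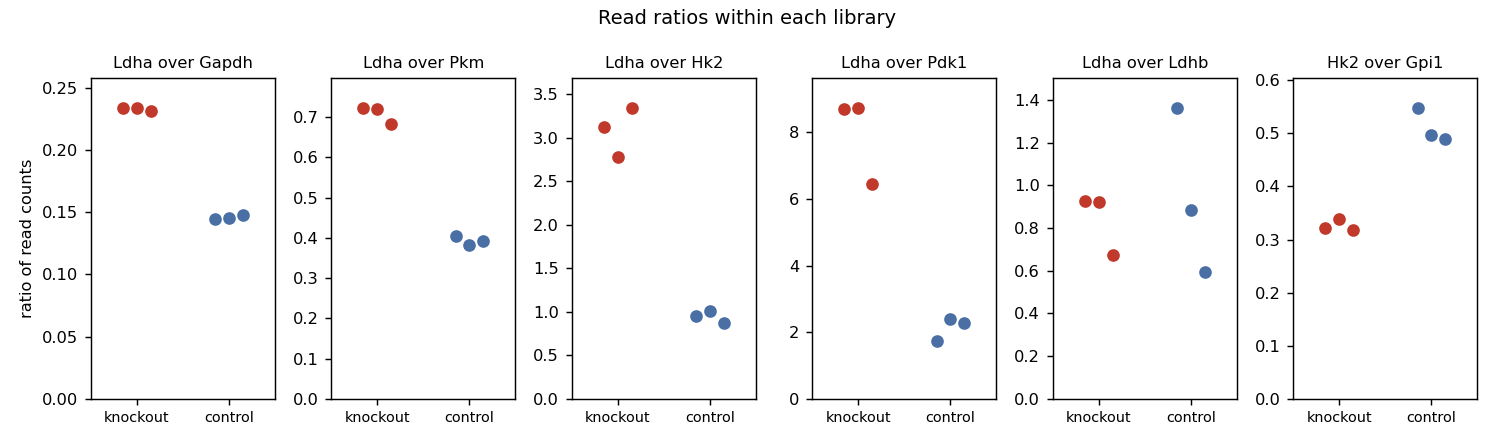
Ratio of the read counts of 2 genes within each library, with knockout libraries on the left (red) and control libraries on the right (blue), points being libraries 1, 2 and 3. The groups were apart in 5 panels, with Ldha over Hk2 at 2.77 to 3.35 in knockout libraries and 0.866 to 1.01 in control libraries, and overlapped for Ldha over Ldhb.

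Beyond the 36 genes, 119 other genes of 6 lists around the pathway were read from the same test (1 more listed gene had no row), and 2 were higher and 1 lower among the 102 tested. These calls were 2.94% of the 102, against 4.83% of all genes tested, so the lists held no more calls than genes at large. Among 23 tested genes of lactate and pyruvate handling, Mpc1 and Emb were called higher and 0 lower, or 8.70%. At an unadjusted p under 0.05, 3 were higher and 1 lower, or 17.4% against 24.1% of all genes. Mpc1 encodes a subunit of the mitochondrial pyruvate carrier. It stood at 188, 174 and 197 CPM in knockout libraries, against 80.1, 108 and 97.1 CPM in control libraries, with the groups far apart (log2 fold change 0.97 ± 0.16 SE, edgeR adjusted p 0.0156). Mpc2, the partner subunit, did not follow it and, named after its values were seen, had a log2 fold change of −0.50 (edgeR adjusted p 0.142), so that Mpc1 reads over Mpc2 reads were 0.850, 0.807 and 0.894 in knockout libraries, against 0.348, 0.296 and 0.291 in control libraries. Without knockout 1, 2 and 3 the edgeR adjusted p of Mpc1 was 0.101, 0.0836 and 0.0727.

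Emb encodes embigin, a membrane chaperone of monocarboxylate transporters. It stood at 152, 145 and 155 CPM in knockout libraries, against 79.8, 104 and 98.6 CPM in control libraries, with no overlap (log2 fold change 0.68 ± 0.15 SE, edgeR adjusted p 0.0361). Its exons overlap a gene on the opposite strand over 9.9% of their length, which unstranded reads cannot tell apart. Bsg, which encodes the MCT1 chaperone basigin and was named after its values were seen, stood at 424, 425 and 423 CPM in knockout libraries, against 174, 299 and 317 CPM in control libraries. The knockout libraries were nearly equal and all higher, and the difference did not pass (log2 fold change 0.69 ± 0.22 SE, edgeR adjusted p 0.0950). Without knockout 1, 2 and 3 the edgeR adjusted p of Emb was 0.182, 0.167 and 0.103, and it was 0.0588 and 0.0522 without control 2 and 3.

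Of 12 pentose phosphate pathway genes, Pgd alone was called and was lower, or 8.33% against 4.83% of all genes. Those with an unadjusted p under 0.05 were 3 higher and 3 lower, a larger share than the 24.1% of all genes. Groups were apart in 7 of the 12, or 58.3% against 32.6% of all genes, with 3 higher and 4 lower. Pgd encodes phosphogluconate dehydrogenase, which yields NADPH. It stood at 61.3, 57.2 and 69.2 CPM in knockout libraries, against 102, 88.9 and 92.2 CPM in control libraries, with no overlap (log2 fold change −0.59 ± 0.15 SE, edgeR adjusted p 0.0492). Without knockout 1, 2 and 3 it was 0.255, 0.281 and 0.0852 and without control 2 and 3 it was 0.0830 and 0.0596, all edgeR adjusted p.

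In the other 4 lists edgeR called 0 genes. Among 17 citric acid cycle genes, 5 were higher and 1 lower at an unadjusted p under 0.05, or 35.3% against 24.1% of all genes. The smallest p belonged to Idh3b and Idh2, subunit genes of isocitrate dehydrogenases (log2 fold changes 0.71 and 0.67, edgeR adjusted p 0.0564 and 0.0801). Among 14 tested genes of other glucose transport, glycolysis and glycogen entry, 2 were higher and 1 lower at that unadjusted p, or 21.4%. Pgm2, a phosphoglucomutase gene, had a log2 fold change of 2.39 (edgeR adjusted p 0.0664) and Tigar, which encodes a sugar bisphosphatase, one of −0.77 (0.0927).

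Among 21 regulators, 0 were higher and 5 lower at an unadjusted p under 0.05. These 5 were 23.8% of the 21, against 12.8% of all genes that were lower and 24.1% in either direction. Mycn, a MYC family transcription factor gene, had a log2 fold change of −0.66 and Epas1, which encodes HIF-2 alpha, one of −0.63 (edgeR adjusted p 0.0615 and 0.0826). Among 15 tested known hypoxia-inducible factor targets outside the 36 genes, 3 were higher and 0 lower at that unadjusted p. This was a larger share than the 11.3% of all genes that were higher, and a smaller one than the 24.1% in either direction. Ankrd37 and Bnip3 had the smallest p, with log2 fold changes of 0.76 and 0.81 (edgeR adjusted p 0.0906 and 0.106). Across the 102 genes of the 6 lists, DESeq2 called 9 higher and 3 lower and limma-voom 13 higher and 10 lower.

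Markers of other cell types moved with the groups as well, and in bulk libraries fewer cells of a type and less RNA per cell cannot be told apart. Sertoli cell markers summed to 162 to 196 CPM in knockout libraries and 76.5 to 98.3 CPM in control libraries, with 3 of 9 tested (Cldn11, Clu and Inha) called higher and Amh and Dhh below 1 CPM in every library. Myoid and smooth muscle markers summed to 340 to 457 CPM in knockout libraries and 142 to 175 CPM in control libraries, with 3 of 6 called higher (Acta2, Actg2 and Myl9) and Tagln below 1 CPM throughout. Stromal markers summed to 1531 to 1676 CPM in knockout libraries and 729 to 1085 CPM in control libraries, with 2 of 7 called higher (Dcn and Lum). The stromal sums overlapped without Dcn, at 831 to 1047 CPM in knockout libraries and 500 to 876 CPM in control libraries, and Pdgfra, Tcf21, Col1a1 and Col1a2 overlapped between the groups. The Sertoli and myoid sums stayed apart without their most abundant markers, Clu and Myl9. The Sertoli markers Sox9, Wt1, Gata4, Rhox5, Aard and Kitl overlapped between the groups. Their log2 fold changes were negative for Sox9, Rhox5 and Aard and positive for Wt1, Gata4 and Kitl. The myoid markers Myh11 and Cnn1 overlapped as well. Over all genes tested, edgeR called 2.03% higher and 2.80% lower.

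Macrophage markers summed to 1851 to 2675 CPM in knockout libraries and 688 to 1658 CPM in control libraries, with 0 of 7 called by edgeR. At an unadjusted p under 0.05, 2 (Lyz2 and C1qa) were higher, or 28.6% against 11.3% of all genes. Without Lyz2 the macrophage sums overlapped, at 721 to 910 CPM in knockout libraries and 384 to 753 CPM in control libraries. The other 5 macrophage markers, Csf1r, Adgre1, Cd68, C1qb and Ptprc, overlapped between the groups. T lymphocyte markers summed to 56.4 to 73.5 CPM in knockout libraries and 29.5 to 35.5 CPM in control libraries. Of these 8, 2 were called higher (Cd3g and Lck), or 25.0% against 2.03% of all genes. Cd3d, Trac, Cd2, Cd4 and Cd8a overlapped between the groups, with negative log2 fold changes for Trac and Cd8a. Without Cd3g the T lymphocyte sums stayed apart, at 35.0 to 38.4 CPM in knockout libraries and 14.3 to 26.3 CPM in control libraries. Endothelial markers summed to 44.5 to 54.9 CPM in knockout libraries and 29.7 to 40.2 CPM in control libraries, with 0 of 6 called. At that unadjusted p 2 were higher, or 33.3% against 11.3% of all genes. Pecam1, Cdh5 and Vwf overlapped between the groups, with a negative log2 fold change for Cdh5. Markers of undifferentiated spermatogonia summed to less in knockout libraries, at 328 to 356 CPM, against 451 to 606 CPM in control libraries. Of these 10, 3 were called lower (Gfra1, Ret and Etv5), or 30.0% against 2.80% of all genes. Lin28a, Thy1, Bcl6b and Eomes overlapped between the groups, with a positive log2 fold change for Eomes (0.50). The 8 germ cell markers moved in both directions, with a median log2 fold change of −0.14. Mael was called higher, Tex101 was higher at an unadjusted p under 0.05 (log2 fold change 0.83), and Zbtb16, Sall4 and Nanos3 were lower at that unadjusted p (log2 fold changes −1.08, −0.46 and −0.56), each with groups apart. The sum of the 8 markers, 5143 to 5695 CPM in knockout libraries and 3811 to 5022 CPM in control libraries, is carried by the abundant Dazl, Mael and Tex101. Sums of the spermatocyte and spermatid, Leydig cell and erythroid lists overlapped between the groups. Glycolysis is used by all these cell types, and the part of these markers' cells in the differences of the glycolysis genes was not tested.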

How the data were processed

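RNA was measured in 6 libraries, 3 Ddx20 knockout and 3 control, grouped by their labels. The authors deposited whole-number read counts per Ensembl gene, and their columns of summed counts and of mean count (a signal over the libraries) were used in no test. The submitters' processing notes name mm10 as the build and list edgeR, DESeq2, StringTie 2.1.7, STAR 2.7.5c and Trimmomatic 0.39 without saying which step each served. Counter, annotation, strand setting and row filter: not given in the sources used here. Symbols, positions and lengths came from GENCODE M21 (22562 of 22579 identifiers matched) and promoters from RefSeq on GRCm38.p6.

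The main test was edgeR 4.0.16 (R 4.3.3), a robust quasi-likelihood F test with TMM scaling, filterByExpr and genotype as the sole term, fitted on the whole table. A gene was called at an adjusted p under 0.05 (Benjamini-Hochberg, 14766 genes). All p-values are two-sided. Log2 fold changes are knockout over control, and their SE is the absolute value divided by the root of F. CPM per kb divides by the length of the principal transcript. The floor of 3 counts covers counting error only and corresponds to 0.240 to 0.356 CPM. The scripts were tested on simulated data. Alternatives were 18 other analyses, among them DESeq2 1.42.0 and limma-voom with sample quality weights in every fit (limma 3.58.1); 2 were added after seeing the data.

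All 36 genes are accounted for. Values in every library are given for called genes, for genes with groups apart and an unadjusted p under 0.05, and for the most abundant isozyme of each step. Of the other lists, called genes are named, or else the 2 with the smallest p. The genes, lists and tests were chosen with earlier results of these data known. The labels speak of littermates but not of which library came from which animal, so the p-values reflect no more than the variation among these 6 samples, part or all of which may be technical.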

Additional observations from a re-analysis of the deposited data

How the results depend on the processing

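All 5 calls (Ldha, Ldhb, Tpi1, Hk2 and Pdk1) kept their direction in each of the 18 alternatives, and were called in 14, 13, 10, 13 and 8 of them. Over all genes 713 were called; the number was 1378 with library size alone (which moved the median of all genes to −0.26), 1641 by DESeq2, 2765 by limma-voom, 1 with knockout 1 and 2 as 1 library by edgeR, 469 and 408 in that setting by DESeq2 and limma-voom (which used quality weights in both settings), and 3 to 839 with 1 library left out. Of the 36 genes, 3 were called higher; the number was 5 with no filter on low counts, 6 by DESeq2, 9 by limma-voom, 0 with the pair as 1 library by edgeR (7 at an unadjusted p under 0.05), 5 in that setting by DESeq2, and 0 to 4 with 1 library left out. The 2 called lower became 0 with the pair as 1 library by edgeR (3 at an unadjusted p under 0.05), 1 in that setting by DESeq2 and by limma-voom, 1 with the length and GC trend removed, and 0 to 2 with 1 library left out. Of the other pathway genes, 2 were called higher; the number was 1 with library size alone, 4 with no filter, 9 by DESeq2, 13 by limma-voom, 0 with the pair as 1 library by edgeR (12 at an unadjusted p under 0.05), 1 in that setting by limma-voom, and 0 to 5 with 1 library left out. The 1 called lower (11 at an unadjusted p under 0.05) became 0 with DESeq2 size factors, with no filter and with the pair as 1 library by each tool, 7 with library size alone, 3 by DESeq2, 10 by limma-voom, and 0 to 2 with 1 library left out.

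Same-numbered libraries did not deviate together from their group means, with correlations between −0.00423 and 0.00884. The check cannot exclude a pairing, since knockout 1 and knockout 2 were nearly alike and so deviated nearly alike. With the replicate number as a block, 1 of the 36 genes was called lower, 4 other pathway genes higher and 0 lower (11 at an unadjusted p under 0.05), and Pdk1 had an edgeR adjusted p of 0.0518.

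Directions turned only in genes that were never called. With library size alone the log2 fold changes were −0.14 for Slc2a3, −0.0128 for Pfkm, −0.13 for Pfkfb3, −0.0312 for Aldoc, −0.23 for Eno3, −0.0772 for Pkm, −0.15 for Pdk3 and −0.0933 for Pdha1. By limma-voom they were 0.0074 for Gpi1, −0.0108 for Pfkfb3, −0.0145 for Pfkfb4, −0.0925 for Eno3 and −0.0428 for Pdk3, and −0.0677 for Pfkm with the pair as 1 library. With the length and GC trend removed they were 0.10 for Gpi1, 0.13 for Pfkfb2, −0.25 for Eno3 and −0.0526 for Pdk3. Pfkfb2 was at 0.0061 with DESeq2 size factors, 0.0019 with at least 1 CPM in 3 libraries, 0.013 with the replicate block and 0.0062 by DESeq2. With 1 library left out the ranges were −0.0171 to 0.20 for Slc2a3, −0.0447 to 0.0285 for Gpi1, −0.37 to 0.46 for Pfkfb2, −0.13 to 0.38 for Pfkfb3, −0.54 to 0.97 for Pfkfb4, −0.46 to 0.20 for Pgk2, −0.18 to 0.49 for Eno3, −0.0443 to 0.29 for Pdk3 and −0.0253 to 0.44 for Pdha1. The cause was not tested. At the lowest levels depth limits the test: 4 of the 36 genes could not be tested.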
